A study of Mus musculus with 7 samples.

Results

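Acyl-CoA synthetases are the enzymes that join a fatty acid to coenzyme A, at the cost of ATP, and only in this activated form can a fatty acid be oxidized, elongated or built into triglycerides and phospholipids. The family is divided by the chain length of the preferred substrate, with Acsl enzymes for long chains, Acsm enzymes for medium chains and Acss enzymes for short chains such as acetate and propionate. In the liver, Acsl enzymes sit on the endoplasmic reticulum, lipid droplets and outer mitochondrial membrane, and the Acsm enzymes lie in the mitochondrial matrix. The mRNAs of 10 of these genes, namely Acsl1, Acsl3, Acsl4, Acsl5, Acss1, Acss2, Acss3, Acsm1, Acsm3 and Acsm5, were examined in livers of HFD-fed mice, WT or TET1 KO. They were taken by gene symbol from tables of 51426 genes. Acss3 fell 4.74-fold in TET1 KO livers and was the only one of the 10 past the threshold of the test, a call lost without WT replicate 2. Acsl5 and Acsm3 did not pass it but had lower values in every TET1 KO liver than in any WT liver, as did 10.8% of all genes tested. The barely detected Acss1 had higher values in every TET1 KO liver, as did 11.7% of all genes tested. Acsl1, the main long-chain enzyme of the liver, had overlapping values.

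Poly(A) or rRNA-depleted liver RNA was sequenced from 3 WT and 4 TET1 KO male mice, all given as C57BL/6J, which had been placed on an HFD with 60% of calories from fat at 8 weeks of age and kept on it for 16 weeks. TET1 oxidizes 5-methylcytosine, a step of active DNA demethylation, and the comparison asks how liver gene expression on an HFD differs without it. The study reports less lipid in TET1 KO than in WT livers on this diet. The livers compared thus differed in fat content as well as genotype, and its part in the mRNA values was not tested. The knockout covered the whole body, so a liver difference is not tied to loss of TET1 in hepatocytes, and the labels give no allele. The study writes the sequenced genotypes as TET1 wt/wt and TET1 -/-, its notation for the germline knockout obtained as B6;129S4-Tet1tm1.1Jae/J and not for its cross of floxed TET1 with β-actin Cre. The values are read counts per gene, and CPM denotes the count scaled to library size after TMM normalization, a correction for differences in RNA composition between libraries. A value after ± is the SD over the mice of a genotype.

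Library sizes ranged from 15005277 to 22746138 counts, and WT and TET1 KO libraries overlapped in depth. Tet1 itself had 1, 4 and 1 counts in WT and 2, 1, 4 and 1 counts in TET1 KO livers, at or near a floor of 3 counts, so the knockout could not be checked by this gene. The hepatocyte markers (Alb, Apoa1, Ttr, Serpina1a, Cps1 and Ass1) summed to between 60167 and 80479 CPM in WT and between 74419 and 81229 CPM in TET1 KO livers. Most of this sum was Alb, at a mean of 54537 CPM in WT and 51973 CPM in TET1 KO livers. Apoa1 had means of 5295 and 11343 CPM (edgeR adjusted p = 0.0818) and Serpina1a of 2093 and 2886 CPM (edgeR adjusted p = 0.197), both without overlap. Alb, Ttr, Cps1 and Ass1 overlapped, with Cps1 at means of 1476 and 1084 CPM. Summed cholangiocyte markers ranged from 21.6 to 31.4 CPM in WT and from 33.6 to 53.6 CPM in TET1 KO livers, and summed endothelial markers from 126 to 128 CPM and from 106 to 124 CPM. Among the endothelial markers, WT and TET1 KO means were 13.1 and 6.20 CPM for Lyve1 and 13.9 and 10.4 CPM for Pecam1. Stab2 (35.9 and 33.9 CPM), Clec4g (37.9 and 37.5 CPM) and Kdr (26.2 and 27.9 CPM) differed less. Each endothelial marker on its own overlapped between genotypes. Most of the cholangiocyte sum was Spp1, which other cell types also express, at a mean of 24.4 CPM in WT and 36.5 CPM in TET1 KO livers. The epithelial markers Krt19 and Epcam stood at 6.68 and 4.87 CPM in TET1 KO replicate 4 and at 1.06 to 1.69 and 0.689 to 0.986 CPM in the other TET1 KO livers. TET1 KO replicate 2 stood apart in adipocyte markers, with 60 counts of Adipoq, 70 of Plin1 and 122 of Cfd, where the other TET1 KO livers had 0 of Adipoq, 0 to 1 of Plin1 and 3 to 12 of Cfd. WT replicate 2 had 9 counts of Adipoq, 4 of Plin1 and 17 of Lep, where the other WT livers had 0, 0 and 0 to 1. Its 48 counts of Cfd lay between their 37 and 66. Without TET1 KO replicate 2 the log2 fold change of TET1 KO against WT was -2.07 for Acss3 (edgeR adjusted p = 0.0204), -0.74 for Acsl5 (adjusted p = 0.139) and -0.54 for Acsm3 (adjusted p = 0.137). The sums of macrophage, stellate, lymphocyte, adipocyte and pancreatic acinar markers overlapped between genotypes, with the acinar gene Prss2 at 0 counts in all libraries, and 0 of the markers tested passed edgeR's quasi-likelihood test at an adjusted p under 0.05, while of 32 markers 4 were higher and 2 lower at an unadjusted p under 0.05, against 26.3% of all genes tested, and of the 31 that DESeq2 tested 3 were higher and 2 lower, against 9.14%. Their part in the results was not tested, and in whole liver RNA fewer cells of a type and less RNA per cell cannot be told apart.

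The 10 genes are spread over 7 chromosomes, except that the Acsm genes lie together. On GRCm38.p6, with positions from RefSeq, Acsm5 (chr7:119526131-119543360), Acsm1 (chr7:119617757-119662515) and Acsm3 (chr7:119760883-119784896) share 258.8 kb of chromosome 7 with Acsm2 and Acsm4. The Acsl genes are Acsl1 (chr8:46471037-46536051), Acsl3 (chr1:78657825-78707743), Acsl4 (chrX:142317993-142390802) and Acsl5 (chr19:55251861-55296628). Acss1 (chr2:150618111-150668240) and Acss2 (chr2:155518043-155562743) are on one chromosome, and Acss3 (chr10:106933514-107123761) is on the chromosome of Tet1, 44.0 Mb from it.

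Because TET1 acts on methylated CpG, the CpG content of the 250 bases before each annotated start is given as context, although methylation is not among the measurements analysed here. RefSeq windows of GRCm38.p6 were found for 9 of the 10 genes, Acsl1 having a pair of starts, and not for Acss3. The starts used can differ from the ends of the gene given above. The windows of Acsl4 and Acsl5 and the second of Acsl1 lie inside the gene, and those of Acsm1, Acsm3 and Acsm5 reach into it. All 32841 such windows had a median of 6 CpG. The windows of Acsl3, Acsl4, Acss1 and Acss2 held 28, 25, 15 and 13 CpG, and Acsl1 held 20 at one start and 2 at the other. Acsl5 held 7, Acsm3 5, and Acsm1 and Acsm5 1 each. The 3 stretches shown are the CpG-richest of the set, that of the Acsm gene with the lowest p, and that of the gene with the highest WT level per kilobase of exon on the union exon length, each ending at the base before the first annotated base of the gene, 5′ to 3′ on the plus strand, with every CpG in capitals.
Acsl3, chr1:78657575-78657824: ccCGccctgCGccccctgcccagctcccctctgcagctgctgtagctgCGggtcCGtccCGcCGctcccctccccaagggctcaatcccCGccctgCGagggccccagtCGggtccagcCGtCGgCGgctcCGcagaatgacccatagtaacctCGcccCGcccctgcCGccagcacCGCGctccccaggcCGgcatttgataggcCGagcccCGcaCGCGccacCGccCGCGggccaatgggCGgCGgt
Acsm3, chr7:119760673-119760882: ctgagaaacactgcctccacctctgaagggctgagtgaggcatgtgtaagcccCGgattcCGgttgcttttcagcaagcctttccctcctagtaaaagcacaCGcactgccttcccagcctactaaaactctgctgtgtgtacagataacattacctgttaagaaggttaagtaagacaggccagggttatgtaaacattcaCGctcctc
Acsm1, chr7:119617562-119617756: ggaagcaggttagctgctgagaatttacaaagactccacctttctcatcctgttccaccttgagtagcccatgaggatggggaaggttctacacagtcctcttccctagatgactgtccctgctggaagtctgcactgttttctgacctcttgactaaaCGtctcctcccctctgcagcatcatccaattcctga
The Acsl3 stretch is dense in CpG over its whole length, the Acsm3 stretch shows 4 of the 5 CpG of its window, and the Acsm1 stretch holds a single one. Both strands of the 10 windows were searched for AGGTCA followed after any 1 base by a further AGGTCA, the direct repeat bound by PPAR and RXR, for a single AGGTCA, which such a repeat also holds, and for TCACNCCAC, the core of a sterol regulatory element. The repeat was found in 0 windows against 0.03% of all windows, the single AGGTCA in 1 (Acsm1) against 14.03%, and the sterol element core in 1 (the second start of Acsl1) against 1.05%. These counts describe the letters of the windows and not binding.

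All 10 genes passed the filter on low counts, Acss1 only through the TET1 KO livers, where it was higher, so that its place in the counts of higher genes says nothing of the set. By edgeR's quasi-likelihood test at an adjusted p under 0.05, 1 of the 10 was lower and 0 were higher in TET1 KO livers, where 2.02% of the 14754 genes tested were called, 1.15% of them lower and 0.874% higher. At an unadjusted p under 0.05, 3 were lower and 1, Acss1, was higher, where 26.3% of all genes tested lay under that p, 12.7% lower and 13.6% higher. The CPM ranges of the genotypes did not overlap for 4 of the 10 genes, 3 lower (Acss3, Acsl5 and Acsm3) and 1 higher (Acss1), against 22.5% of all genes tested (10.8% lower and 11.7% higher). The log2 fold change of TET1 KO against WT (log2FC) was negative for 9 of the 10, where 48.9% of all genes tested were negative, with a median of -0.14 against 0.01 over all genes tested. Without WT replicate 2 it was negative for 5 of the 10, and Acsl1, Acsl3, Acss2 and Acsm5 were then positive. With DESeq2, 3 of the 10 were lower and 0 higher, where 9.14% of 14577 genes were called, 4.8% lower and 4.34% higher.

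**Figure D1:**
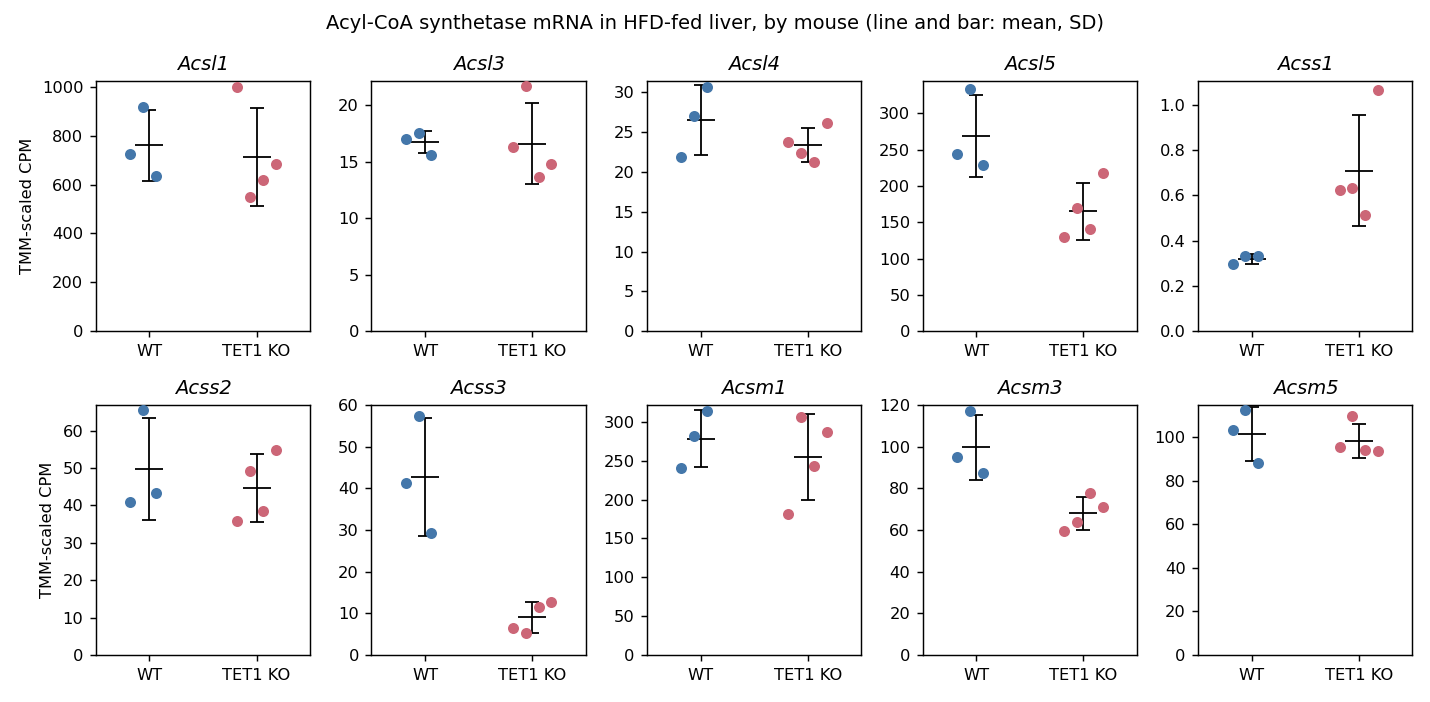
TMM-scaled CPM of the 10 acyl-CoA synthetase genes in each of 3 WT and 4 TET1 KO livers, each panel with its own axis from 0; points are mice, and lines and bars give the mean and SD. The 4 TET1 KO livers lie between 5.14 and 12.8 CPM for Acss3, below all WT livers at 29.2 to 57.4 CPM.

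Levels of different genes were compared per kilobase of exon, using the union of exons of each gene. In WT livers Acsm1 stood first at 128 ± 16.9 CPM per kilobase (SD, n = 3), followed by Acsl1 at 80.5 ± 15.4 and Acsl5 at 76.2 ± 16.1 CPM per kilobase. The ranges of Acsl1 and Acsl5 overlapped, and that of Acsm1 lay above both. Acsm5 at 35.1 ± 4.26, Acsm3 at 20.2 ± 3.17 and Acss3 at 9.37 ± 3.11 CPM per kilobase came next, with no overlap between neighbours. Acsl4, Acss2 and Acsl3 overlapped one another at 4.91, 4.90 and 4.64 CPM per kilobase, and Acss1 was last at 0.0774 CPM per kilobase. With the longest transcript as the length, Acsl1 at 135.0 and Acsm1 at 134 CPM per kilobase changed places in WT with overlapping ranges. With that length Acss2 at 13.8 ± 3.77 CPM per kilobase lay above Acsl3 at 5.23 and Acsl4 at 5.02, and overlapped Acss3, which kept place 6 at 17.1 CPM per kilobase. The ranges of Acss2 and Acss3 already touched on the union of exons, where Acss2 reached 6.44 and Acss3 began at 6.43 CPM per kilobase. In TET1 KO livers, on the union of exons, the first 5 places were held in the same order, while Acss3 stood in place 9 of the 10 at 1.97 ± 0.817 CPM per kilobase (SD, n = 4), with a range of 1.13 to 2.80 that lay below those of Acsl3, Acss2 and Acsl4. With the longest transcript Acss3 kept place 9 in TET1 KO livers, but its range of 2.06 to 5.12 CPM per kilobase then overlapped those of Acsl3 and Acsl4 and lay below that of Acss2 alone among these 3.

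The short-chain genes differed most among themselves. Acss3 encodes a mitochondrial synthetase that activates propionate, Acss2 the cytosolic and nuclear enzyme that makes acetyl-CoA from acetate, and Acss1 its mitochondrial counterpart. Acss3 (ENSMUSG00000035948) measured 41.1, 57.4 and 29.2 CPM in the WT livers and 6.51, 5.14, 11.5 and 12.8 CPM in the TET1 KO livers. The highest TET1 KO liver, replicate 4, thus lay below the lowest WT liver, replicate 3. The raw counts behind these values were 836, 1385 and 530 in WT and 104, 73, 225 and 275 in TET1 KO livers, so that every library was far above the floor. Acss3 fell from a mean of 42.6 ± 14.1 CPM in WT to one of 8.98 ± 3.72 CPM in TET1 KO livers (SD, n = 3 and n = 4), with a log2FC of -2.24 (standard error, SE, 0.31, 95% interval -2.93 to -1.55) and an adjusted p of 0.00879 in edgeR's quasi-likelihood test. It held rank 34 by p over all genes tested. Across 14 alternative fits the log2FC lay between -2.48 and -1.97, and the call was lost in 1 of them, without WT replicate 2, the liver with the highest Acss3 (log2FC -1.97, edgeR adjusted p = 0.0554). The exact two-sided permutation test over the 35 splits of the mice gave p = 0.0286 for Acss3, the smallest it can give.

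Acss2 (ENSMUSG00000027605) ranged from 40.8 to 65.5 CPM in WT and from 35.9 to 54.9 CPM in TET1 KO livers, for a log2FC of -0.16 (SE 0.20, 95% interval -0.60 to 0.29) and an edgeR adjusted p of 0.636. Acss1 (ENSMUSG00000027452) was barely detected in this tissue, with 6, 8 and 6 counts in WT and 10, 9, 10 and 23 counts in TET1 KO livers. These counts correspond to 0.295, 0.332 and 0.331 CPM in WT and to 0.626, 0.634, 0.511 and 1.07 CPM in TET1 KO livers. All TET1 KO livers were higher than all WT livers, but the gene passed the filter through the TET1 KO group, and 3 of the 7 fits that left out a mouse dropped it. Its log2FC was 1.16 (SE 0.45, 95% interval 0.16 to 2.15), with an edgeR adjusted p of 0.141.

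Since Acss2 and Acss3 were read from the same library, their ratio does not depend on library scaling. Like the ratios of Acsl5 to Acsl1 and Acsm3 to Acsm5 below, it sets a gene lower in TET1 KO livers over one with overlapping values. A lower ratio thus follows in part from the choice of pair and is no separate support. The ratio of Acss3 to Acss2, set to a WT mean of 1, was 1.18, 1.03 and 0.792 in WT and 0.212, 0.122, 0.351 and 0.272 in TET1 KO livers. Every TET1 KO liver thus lay below every WT liver in this ratio too, and the mean ratio in TET1 KO livers was 0.239 ± 0.0965 (SD, n = 4). Per kilobase of exon, Acss3 made up between 59.7% and 68.9% of the summed Acss level in WT and between 18.4% and 39.3% in TET1 KO livers. With the union of exons Acss3 exceeded Acss2 in all WT livers, and with the longest transcript the ratio per kilobase was 0.98 in WT replicate 3.

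Among the long-chain genes, Acsl1 is the major synthetase of hepatocytes, Acsl5 is found on the endoplasmic reticulum and mitochondria, Acsl3 is known from growing lipid droplets, and Acsl4 prefers arachidonic acid. Acsl5 (ENSMUSG00000024981) measured 244, 334 and 229 CPM in WT and 130.1, 170.4, 141 and 218 CPM in TET1 KO livers. The groups did not overlap, although TET1 KO replicate 4 came close to the lowest WT liver. The means were 269 ± 56.9 CPM (SD, n = 3) and 165 ± 39.5 CPM (SD, n = 4), 1.63-fold apart. The log2FC was -0.71 (SE 0.20, 95% interval -1.15 to -0.26), and the adjusted p of 0.0789 in edgeR's quasi-likelihood test did not pass the threshold. Acsl5 passed with DESeq2 (log2FC -0.73, adjusted p = 0.0165) and in edgeR's fit without TET1 KO replicate 4 (log2FC -0.87, adjusted p = 0.0327), while the adjusted p over all alternatives reached 0.326.

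Acsl1 (ENSMUSG00000018796) ranged from 634 to 919 CPM in WT and from 548 to 999.8 CPM in TET1 KO livers, where TET1 KO replicate 1 was the highest of the 7 mice. Its log2FC was -0.09 (SE 0.23), with a 95% interval of -0.59 to 0.41 that includes a fall of about the size measured for Acsm3. Acsl3 (ENSMUSG00000032883) ranged from 15.6 to 17.5 CPM in WT and from 13.6 to 21.7 CPM in TET1 KO livers, for a log2FC of -0.01 (SE 0.17, 95% interval -0.39 to 0.37). Acsl4 (ENSMUSG00000031278) ranged from 21.9 to 30.6 CPM in WT and from 21.3 to 26.2 CPM in TET1 KO livers, for a log2FC of -0.18 (SE 0.15, 95% interval -0.51 to 0.15). The genotypes overlapped for all 3 genes, whose edgeR adjusted p-values were 0.815, 0.967 and 0.454. Acsl3, with 260 to 422 counts per library, overlaps in the RefSeq annotation the protein-coding Utp14b, which starts at the same base and had at most 144 counts. The sign for Acsl1 turned positive without WT replicate 2, and that for Acsl3 turned positive in 3 of the 7 fits that left out a mouse.

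The balance between the abundant long-chain genes was uneven among TET1 KO mice. The ratio of Acsl5 to Acsl1, set to a WT mean of 1, was 0.95, 1.03 and 1.02 in WT and 0.368, 0.879, 0.645 and 0.902 in TET1 KO livers. All TET1 KO ratios were below those of WT, with TET1 KO replicate 1 far from TET1 KO replicates 2 and 4, which were close to WT. Per kilobase of exon Acsl1 held between 47.3% and 49.7% of the summed Acsl level in WT and between 49.8% and 69.8% in TET1 KO livers.

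**Figure D2:**
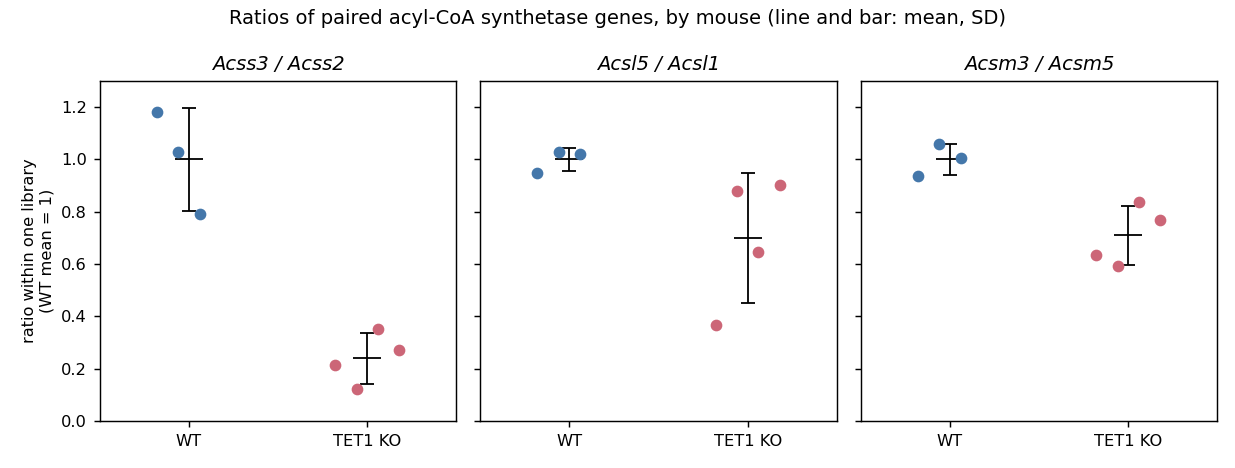
Ratio of Acss3 to Acss2, Acsl5 to Acsl1 and Acsm3 to Acsm5 in each liver, divided by its WT mean; points are mice, and lines and bars give the mean and SD. TET1 KO livers average 0.239 for Acss3 to Acss2, 0.699 for Acsl5 to Acsl1 and 0.709 for Acsm3 to Acsm5, and in each panel all lie below the WT livers. Each pair sets a gene lower in TET1 KO livers over one with overlapping values, so lower ratios follow in part from that choice.

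The medium-chain genes encode enzymes of the mitochondrial matrix that activate medium-chain fatty acids. Acsm3 (ENSMUSG00000030935) measured 95.1, 117 and 87.2 CPM in WT and 59.5, 64.1, 77.6 and 70.9 CPM in TET1 KO livers. No TET1 KO liver reached the lowest WT liver, and the spread within TET1 KO livers was 11.6% of their mean. The means were 99.9 ± 15.6 CPM (SD, n = 3) and 68.1 ± 7.92 CPM (SD, n = 4), 1.47-fold apart. The log2FC of -0.55 (SE 0.15, 95% interval -0.87 to -0.23) had an adjusted p of 0.0681 in edgeR's quasi-likelihood test and did not pass the threshold. Acsm3 passed with DESeq2 (adjusted p = 0.0155) and with scaling to library size only in edgeR (adjusted p = 0.0493), and in 0 of the 7 edgeR fits that left out a mouse, where the adjusted p ranged from 0.0611 to 0.283.

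Acsm1 (ENSMUSG00000033533) ranged from 240 to 314 CPM in WT and from 181 to 306 CPM in TET1 KO livers, for a log2FC of -0.13 (SE 0.19, 95% interval -0.54 to 0.29, edgeR adjusted p = 0.685). Acsm5 (ENSMUSG00000030972) ranged from 88.3 to 113 CPM in WT and from 93.6 to 109.8 CPM in TET1 KO livers, for a log2FC of -0.05 (SE 0.13, 95% interval -0.33 to 0.24, edgeR adjusted p = 0.845). Acsm5 thus had the narrowest interval of the 10 genes, and it excludes a fall of the size measured for Acsm3. The ratio of Acsm3 to Acsm5, set to a WT mean of 1, was 0.937, 1.06 and 1.00 in WT and 0.635, 0.593, 0.839 and 0.770 in TET1 KO livers. Its lack of overlap follows in part from setting a lower gene over one with overlapping values. In the RefSeq annotation Acsm1 overlaps the non-coding Gm19950, Acsm3 overlaps Eri2 and Acsm5 overlaps Pdilt, which had at most 799, 154 and 300 counts in any library. How reads in the shared stretches were assigned is not given in the sources used here.

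**Figure D3:**
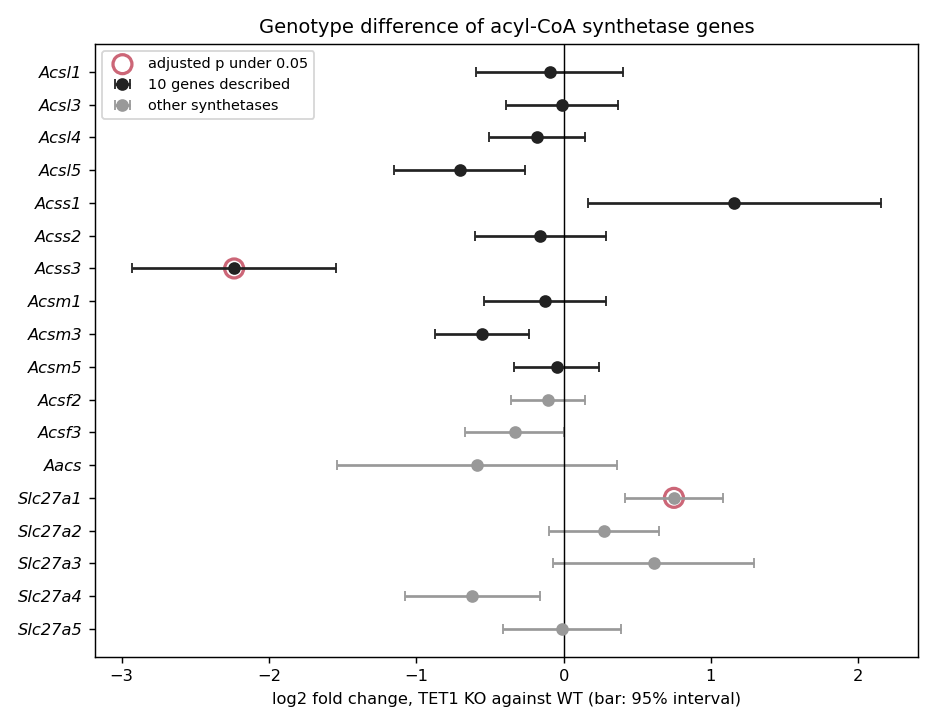
Log2FC of TET1 KO against WT with its 95% interval for the 10 genes (black) and for 8 other acyl-CoA synthetase genes that passed the filter (grey); rings mark edgeR's adjusted p under 0.05. Acss3 at -2.24 and Slc27a1 at 0.75 carry a ring.

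**Figure D4:**
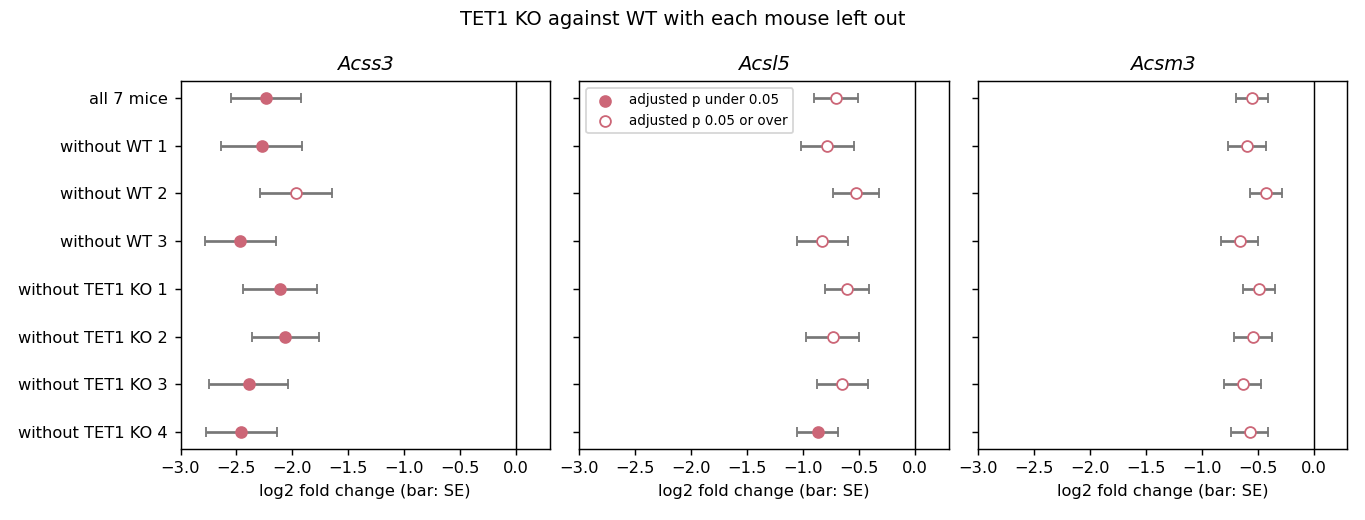
Log2FC with SE for Acss3, Acsl5 and Acsm3 in the fit of all 7 mice and with each mouse left out; filled points have an adjusted p under 0.05. Acss3 stays between -2.46 and -1.97 and is open only without WT replicate 2.

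Within WT, replicate 2 was the highest mouse for 8 of the 10 genes and replicate 3 the lowest for 6. Likeness was measured as the root mean square difference of log2 CPM over the 7 mice, each gene centred on its own mean. By this measure the closest pair was Acsl3 and Acsm5 at 0.134, followed by Acss2 and Acsm1 at 0.231, Acsl4 and Acsm1 at 0.234 and Acsl5 and Acsm3 at 0.236. The measure includes the difference between genotypes, so that genes with like fold changes score close. It does not separate that difference from how the genes vary between mice of one genotype. Over all genes tested, the closest to Acss3 were Bglap3 at 0.353, 9130409I23Rik at 0.364 and Psma8 at 0.368. Psma8 had 0 to 3 counts in the TET1 KO livers.

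Other enzymes that activate fatty acids were read next. Of 14 further synthetase genes 8 passed the filter, and 1 was higher and 0 lower in TET1 KO livers in edgeR's quasi-likelihood test and with DESeq2, against 2.02% and 9.14% of all genes tested in either direction. The median log2FC was -0.06, and at an unadjusted p under 0.05, where 26.3% of all genes tested lay, 1 was higher and 1 lower. Slc27a1, a fatty acid transport protein with synthetase activity, rose from a mean of 5.67 ± 0.111 CPM in WT to one of 9.52 ± 0.518 CPM in TET1 KO livers (SD, n = 3 and n = 4), a log2FC of 0.75 (SE 0.15, edgeR adjusted p = 0.0351). This call held in 1 of the 7 fits that left out a mouse, the one without TET1 KO replicate 4, and in the other 6 the edgeR adjusted p ran from 0.0558 without WT replicate 1 to 0.149 without WT replicate 2. The more abundant family members of the liver did not pass, with log2FC values of 0.28 for Slc27a2 (edgeR adjusted p = 0.312) and -0.01 for Slc27a5 (edgeR adjusted p = 0.973), the latter an enzyme that also activates bile acids. Acsl6 had 0 to 1 counts in WT and 3 to 5 counts in TET1 KO livers, Acsm2 had at most 10 counts, and Acsm4 and Acsbg2 had 0 counts in all libraries, which allows 3 counts in each.

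**Figure D5:**
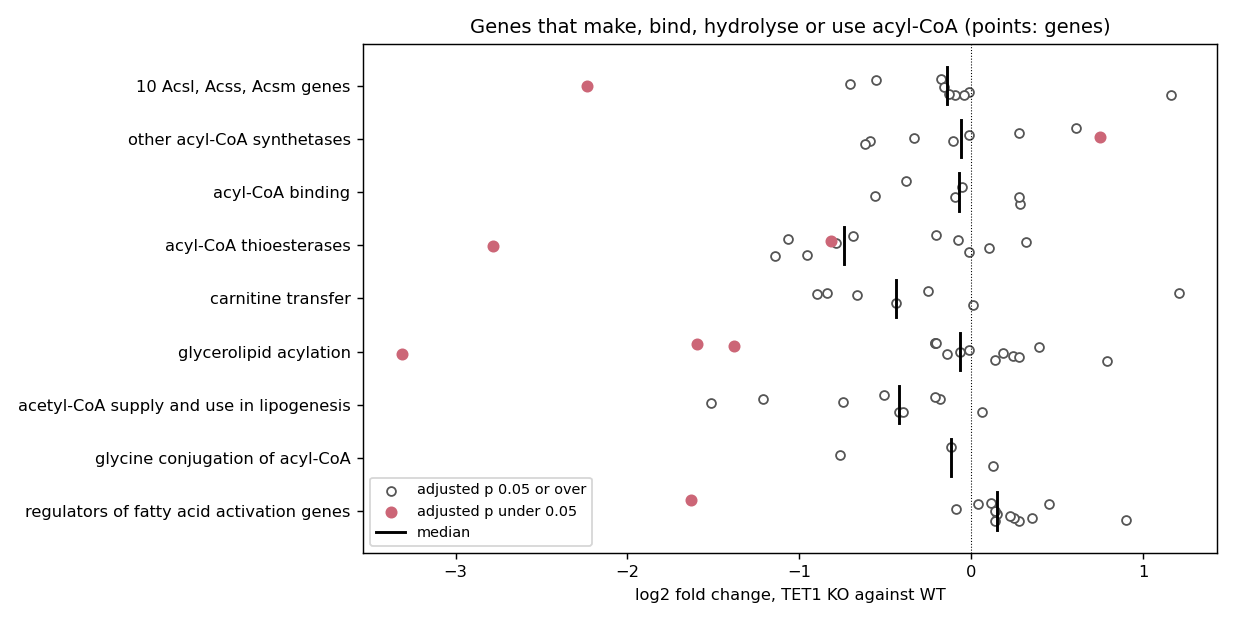
Log2FC of TET1 KO against WT for every tested gene (points) of the 10 genes and of 8 lists of genes that make, bind, hydrolyse, use or regulate acyl-CoA; filled points have edgeR's adjusted p under 0.05 and bars give the median. The thioesterases have the lowest median at -0.74, and the lowest filled point is Mogat1 at -3.31.

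The genes downstream of activation were counted by step, and their counts stand against 2.02% of all genes tested called by edgeR, 9.14% called with DESeq2 and 26.3% at an unadjusted p under 0.05. Acyl-CoA thioesterases, which cleave acyl-CoA back to fatty acid and coenzyme A, included 2 lower and 0 higher of 12 tested, with a median log2FC of -0.74. Acot11 fell from 21.6 ± 3.05 CPM in WT to 12.2 ± 2.46 CPM in TET1 KO livers, with an edgeR adjusted p of 0.0490, and Acot3 from 28.1 CPM in WT, where the mice ranged from 5.85 to 49.9 CPM, to 4.06 ± 2.19 CPM, with an edgeR adjusted p of 0.0382 and reads that may be shared with close paralogs. Without WT replicate 2 the edgeR adjusted p of Acot11 was 0.231 and that of Acot3 0.209, and without WT replicate 1 or TET1 KO replicate 1, 2 or 3 neither was called. Acot11 was not called without WT replicate 3 either (edgeR adjusted p = 0.0820). At an unadjusted p under 0.05, 6 thioesterases were lower and 0 higher, and with DESeq2 5 were lower and 0 higher. Among glycerolipid acyltransferases and phosphatases, which build acyl-CoA into triglyceride and phospholipid, 3 were lower (Gpam, Gpat3 and Mogat1) and 0 higher of 15 tested, with a median of -0.06, and 1 was higher and 3 were lower both at an unadjusted p under 0.05 and with DESeq2. Agpat1, an acyltransferase of phosphatidic acid synthesis, measured 14.7 ± 2.62 CPM in WT and 25.4 ± 5.98 CPM in TET1 KO livers without overlap (log2FC 0.79, edgeR adjusted p = 0.0629). Gpat3 fell from 12.8 ± 2.36 CPM to 4.89 ± 1.07 CPM (edgeR adjusted p = 0.0112). Without WT replicate 2 its log2FC of -1.38 became -1.22 and the call was lost (edgeR adjusted p = 0.0771). Gpam was not called without WT replicate 2, where its log2FC of -1.60 became -0.86 (edgeR adjusted p = 0.0897), without TET1 KO replicate 1, 2 or 3, or with robust dispersions (edgeR adjusted p = 0.0727), and Mogat1 was called in every fit that kept it.

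Genes for transfer of acyl groups to and from carnitine, the form in which they enter mitochondria, included 0 called of 7 tested in edgeR's quasi-likelihood test, with a median of -0.44. Its lowest p was that of Cpt1b, at 1.74 ± 0.546 CPM in WT and 4.04 ± 0.910 CPM in TET1 KO livers (edgeR adjusted p = 0.0567). Crot, the peroxisomal carnitine octanoyltransferase, was at 543 ± 85.1 CPM in WT and 291 ± 86.1 CPM in TET1 KO livers, without overlap (log2FC -0.90, edgeR adjusted p = 0.0683). Crat, the carnitine acetyltransferase, was at 43.4 ± 13.3 and 27.4 ± 3.26 CPM (log2FC -0.66, edgeR adjusted p = 0.0851), with neither gene called. At an unadjusted p under 0.05, again against 26.3% of all genes tested, 1 gene of this list was higher and 2 were lower, as with DESeq2. Acetyl-CoA supply and use in lipogenesis included 0 called of 9 tested, with a median of -0.42, 4 lower at an unadjusted p under 0.05 and 0 called with DESeq2. The acyl-CoA binding proteins included 0 called of 6, with a median of -0.07, 2 higher and 2 lower at an unadjusted p under 0.05 and 1 lower with DESeq2. Glycine conjugation of acyl-CoA, the fate of many products of Acsm enzymes, included 0 called of 3, with a median of -0.12 and 1 lower both at an unadjusted p under 0.05 and with DESeq2.

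Of 13 nuclear receptors, coactivators and other regulators of fatty acid activation genes, 1 was lower and 0 higher in edgeR's quasi-likelihood test, with a median of 0.15, against 2.02% of all genes tested called in either direction. At an unadjusted p under 0.05, 3 were higher and 1 lower, against 26.3%, and with DESeq2 1 was higher and 1 lower, against 9.14%. Pparg, a receptor known to induce lipid storage genes, was the one called (edgeR adjusted p = 0.0265). This call was lost without WT replicate 1, WT replicate 2 or TET1 KO replicate 3, where the edgeR adjusted p was 0.0549, 0.149 and 0.0786. Ppara, a receptor known to induce fatty acid oxidation genes and Acsl1 in liver, measured 48.5 ± 15.8 CPM in WT and 45.6 ± 12.0 CPM in TET1 KO livers, for a log2FC of -0.09 (SE 0.23, edgeR adjusted p = 0.830). Mlxipl, which encodes the carbohydrate-responsive factor ChREBP, measured 362 ± 101 CPM in WT and 675 ± 195 CPM in TET1 KO livers without overlap (log2FC 0.90, edgeR adjusted p = 0.0793). Srebf1 had a log2FC of 0.15 (SE 0.25, edgeR adjusted p = 0.716) and Srebf2, a regulator of Acss2 through sterol elements, one of 0.14 (SE 0.14, edgeR adjusted p = 0.559).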

How the data were processed

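Liver RNA of 3 WT and 4 TET1 KO mice was analysed, grouped by the genotype in the sample labels. The authors deposited 1 table of raw read counts per mouse, not normalized; the submitters' processing notes name Trimmomatic 0.36, GSNAP, featureCounts 1.5.3 and GRCm38. The library kit marks strand, but the annotation release and the strand setting of the counting are not given in the sources used here, so overlapping and antisense genes are uncertain. Tables were joined by Ensembl identifier, and 5 repeated entries were left out of 51431, which left 51426 genes, 24623 of them with at least 1 count. The 10 genes and all lists were chosen with earlier results of these data known.

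The test was edgeR 4.0.16 in R 4.3.3, run after filterByExpr and TMM scaling (factors 0.947 to 1.061), in which glmQLFit (legacy = FALSE, robust = FALSE) and glmQLFTest compared the genotypes without covariates. P-values were adjusted by Benjamini-Hochberg over 14754 genes, and a gene was called at an adjusted p under 0.05. Biological variation had a common coefficient of 0.208. The standard error was the log2 fold change divided by the root of F. Log2 CPM used a prior count of 2. Nothing in the labels says more of the replicates than that they are separate samples, and no batch is given, so p-values measure the spread between these samples. Libraries of one genotype differed by more than sampling noise, with a chi-square per degree of freedom of at least 25.0. Same-numbered mice did not deviate together (correlations 0.209, -0.12 and -0.096), so the numbers were not taken as pairs.

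Tested on simulated data for this comparison, with 200 genes changed by a log2 fold of 2, edgeR recovered 179 with 8 false calls among 14493 genes and DESeq2 recovered 180 with 24 among 14754. The alternatives were DESeq2 1.42.0, a block for the replicate number, robust dispersions, scaling by DESeq2's size factors or by library size alone, keeping all genes with a count or only those with 10 counts per library, other exon lengths, and leaving out each mouse in turn. The permutation test of a single value was exact and two-sided, over 35 splits of the mice. Named with values were the 10 genes, Tet1, the called genes of the lists and, after their values had been seen, further list genes, the genes nearest to Acss3 in pattern or position, and overlapping genes. Exon lengths came from GENCODE M1 by Ensembl identifier, and positions and windows from RefSeq on GRCm38.p6. At these depths 1 CPM equals between 15.0 and 22.7 counts before scaling, and the floor of 3 counts covers counting error only. Figures were drawn with matplotlib 3.10.9.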

Additional observations from a re-analysis of the deposited data

Results flagged for a closer look

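Of 18 quantities examined among the 4 TET1 KO livers, namely the 10 genes, library size and the called list genes, 2 had a mouse whose gap to the nearest other exceeded Dixon's 95% critical value, where chance flags about 1 group in 20. For Acsm5 the gap was 0.892 of the group's range, with TET1 KO replicate 2 at 109.8 CPM and the other 3 mice between 93.6 and 95.4 CPM. The same mouse stood apart in adipocyte markers, whose part in this value was not tested. For Acot3 the gap was 0.876 of the range, with TET1 KO replicate 4 at 7.33 CPM and the other 3 between 2.66 and 3.24 CPM.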

How the results depend on the processing

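Acss3 kept its direction in all 14 alternatives and its call in 13, the exception being the fit without WT replicate 2. Acsl4, Acsl5, Acsm3, Acss1 and Acss3 kept their direction wherever they were fitted, and Acss1 could not be fitted in 4 of the 14, which its low counts removed. Depth limits Acss1, which had 6 to 23 counts per library, and Tet1, which lay near the floor of 3 counts.

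DESeq2 gave Acsl5 -0.73 (adjusted p = 0.0165) and Acsm3 -0.58 (adjusted p = 0.0155), 3 of the 10 genes lower, and 1332 calls over all genes against 298 in edgeR, with 1 call among binding proteins, 5 among thioesterases, 3 in carnitine transfer, 1 in glycine conjugation and 2 among regulators. Library size only gave Acsm3 -0.65 (edgeR adjusted p = 0.0493), 2 of the 10 lower, 0 other synthetases and 1 carnitine gene. It moved the median over all genes from 0.01 to -0.08 and the calls from 129 higher and 169 lower to 107 higher and 312 lower. Without a filter on low counts, 592 genes and 2 carnitine genes were called. At least 10 counts in every library, and robust dispersions, each left 1 thioesterase.

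With the replicate number as a block, although same-numbered mice did not deviate together and WT replicates 2 and 3 did not correlate best with their own number, Acsl3 was 0.017 on the log2 scale, Acsl5 -0.86 (edgeR adjusted p = 0.0185) and Acss3 -2.48 (edgeR adjusted p = 0.0141). The replicate block gave 2 of the 10 lower, 2 other synthetases, 3 carnitine genes, 1 acetyl-CoA gene, 2 regulators and 1327 genes in all, and changed no other call of the 10.

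Leaving out 1 mouse at a time gave log2 fold changes of -0.30 to 0.06 for Acsl1, -0.18 to 0.06 for Acsl3, -0.31 to -0.08 for Acsl4, -0.87 to -0.53 for Acsl5, 1.10 to 1.28 for Acss1, -0.30 to 0.08 for Acss2, -2.46 to -1.97 for Acss3, -0.24 to 0.0051 for Acsm1, -0.66 to -0.43 for Acsm3 and -0.16 to 0.03 for Acsm5. Without WT replicate 2, Acsl1 (0.059), Acsl3 (0.014), Acss2 (0.082) and Acsm5 (0.030) turned positive, as did Acsl3 without TET1 KO replicate 3 (0.058) or 4 (0.038) and Acsm1 without TET1 KO replicate 1 (0.0051). Calls ranged from 0 to 2 for the 10 genes, all lower, and from 0 to 1 for other synthetases, carnitine and acetyl-CoA genes. They ranged from 0 to 3 for thioesterases, 1 to 4 for glycerolipid acylation, 0 to 2 for regulators, and 37 without WT replicate 2 to 891 without TET1 KO replicate 4 over all genes. Binding and glycine conjugation stayed at 0. The causes were not tested. With the longest transcript as length, WT levels were 135.0 CPM per kilobase for Acsl1, 5.23 for Acsl3, 0.0883 for Acss1, 13.8 for Acss2, 17.1 for Acss3 and 30.3 for Acsm3.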

Other observations

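Some genes around the 10 synthetases were read only because their values drew attention, and are given as measured. Aacs, the cytosolic synthetase that activates acetoacetate, lay between 64.5 and 70.6 CPM in the 3 WT livers but at 79.3, 19.0, 19.5 and 62.3 CPM in the TET1 KO livers, so that TET1 KO replicates 1 and 4 were near WT and replicates 2 and 3 far below. Its log2FC was -0.59 (SE 0.43, edgeR adjusted p = 0.396).

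Within 1 Mb of Acss3 on GRCm38.p6, RefSeq lists 6 other protein-coding genes, of which Lin7a alone passed the filter. Lin7a measured 9.15 CPM in WT and 13.8 CPM in TET1 KO livers, for a log2FC of 0.59 (SE 0.21, edgeR adjusted p = 0.116), and 0 of the neighbours were called by edgeR's quasi-likelihood test. The gene closest in pattern to Acss3, Bglap3, had 47, 62 and 34 counts in WT and 8, 6, 14 and 20 counts in TET1 KO livers, and 9130409I23Rik had 352, 461 and 193 against 54, 35, 52 and 87 counts.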
